A study of Mus musculus with 8 samples.

Results

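Ecrg4(133-148) was set directly against Ecrg4(71-132), another stretch of the same precursor protein, in primary microglia of C57BL/6 mice. Each fragment was fused to an antibody Fc portion and given at 20 µg/ml for 3 h. RNA was measured on 2 arrays per fragment, which is 4 of the 8 arrays of the study. The other 4 arrays carried cells given PBS alone (2 arrays) or unfused recombinant Fc at 20 µg/ml (2 arrays), also for 3 h. Every array title carries set number 1 or 2, and each Ecrg4(133-148) array was compared with the Ecrg4(71-132) array of its own set. The fragments differ in length by design, with 16 residues in Ecrg4(133-148) and 62 in Ecrg4(71-132). The dose was matched by mass, so the number of molecules given was not matched. The labels do not say from which species the fused sequences came, nor whether the sets were separate cultures or animals. P-values therefore measure only the spread between these samples, which may be technical. In bulk RNA, fewer responding cells and less RNA per cell cannot be told apart.

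Ecrg4, also called augurin, is a small secreted or membrane-tethered precursor that proteases cut into shorter peptides. Microglia are the resident macrophages of the brain, and they answer many stimuli through 2 partly separate branches. In 1 branch the transcription factor NF-kB switches on cytokines such as interleukin 1 and tumour necrosis factor, chemokines that draw neutrophils, and its own inhibitors. In the other, interferon regulatory factors switch on interferon beta, which acts back on the cell through STAT proteins and raises interferon-stimulated genes, many of them antiviral.

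Signals are given throughout as log2 intensity with the array's 75th percentile at 0, and differences as Ecrg4(133-148) minus Ecrg4(71-132) on that scale, so that a negative difference means a lower signal with the shorter fragment. Each array had 24243 to 29474 probes clear of background, and no spot was saturated. Over 19120 genes the fragment arrays correlated at 0.995 within set 1 and 0.987 within set 2, but at 0.955 and 0.962 between the duplicates of Ecrg4(71-132) and Ecrg4(133-148). All 8 macrophage and microglia markers were well above background on every array, with a summed level of 736 to 994 times the 75th percentile. Fibroblast markers summed to 23.9 to 51.7 in set 1 (33.2 with Ecrg4(71-132) and 23.9 with Ecrg4(133-148)) and to 0.424 to 0.621 in set 2, with all 6 well above background on each set 1 array and 1 to 3 of 6 on each set 2 array. Astrocyte markers summed to 29.8 to 43 in set 1 and 72.5 to 76.8 in set 2, and oligodendrocyte markers to 37.1 to 39.6 and 91.2 to 110. Fewer of these markers were well above background in set 2, however. All 8 astrocyte markers were so on each set 1 array and 2 to 6 of 8 on each set 2 array. For oligodendrocyte markers it was 7 to 8 of 8 and 5 to 6 of 8. The astrocyte gene Gfap was at 1.11 to 2.43 in set 1 and -6.23 to -3.66 in set 2. Endothelial markers summed to 12.4 to 13.3 and 25.9 to 31.1. Neutrophil markers summed to 14.3 to 16 and 17 to 24.2, neuronal markers to 4.24 to 5.53 and 4.19 to 8.03, and lymphocyte markers to 0.915 to 1.09 and 1.18 to 1.72. The 17 homeostatic microglia genes summed to 522 to 550 in set 1 and 449 to 513 in set 2. Single genes among the microglial markers differed in either direction, with Cx3cr1 at 4.58 to 4.71 in set 1 and -3.25 to -0.74 in set 2, Tmem119 at -2.06 to -2.03 and -4.67 to -3.82, and Mertk at 1.24 to 1.53 and 2.76 to 3.72. The part of this difference between the sets in the results below was not tested.

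Ecrg4(133-148) gave lower signals than Ecrg4(71-132) for interleukin 1, TNF, the neutrophil-attracting chemokines Cxcl1 and Cxcl2 and a group of antiviral genes, and it did so by nearly the same amount in both sets. Of 19120 genes, 79 were at least 2-fold lower with Ecrg4(133-148) in both sets (0.413%), 26 were at least 2-fold higher in both (0.136%), and 8 passed 2-fold in opposite directions (0.0418%). Among them, 19 of the 79 and 24 of the 26 were not well above background on all 4 fragment arrays. A probe could be kept through 1 bright group alone, which favours a lower signal in the other groups. A gene was counted as differing by a similar amount when its set differences lay within 0.5 of each other and its probe was well above background on all 4 fragment arrays. That left 21 lower genes (0.11%) and 2 higher genes (0.0105%). The 17 lower genes with a symbol were Il1b, Il1a, Tnf, Csf3, Cxcl1, Cxcl2, Cxcl10, Ifit1, Rsad2, Oasl1, Cmpk2, Ifi211, Cd69, Lcn2, Acod1, Rgs16 and Socs3. The higher genes were Rgs2 and the transcript AK084291.

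These genes were picked by the very differences that are listed, so their values are a description and no test is read from them. The only test across genes was limma with the set as a block, and it called 0 of 19120 genes at an adjusted p under 0.05 (0%), the lowest adjusted p being 0.714. Unadjusted p was under 0.05 for 484 lower genes (2.53%) and 726 higher genes (3.8%). Without the block limma called 0 genes (0%), with 141 under 0.05 unadjusted (0.737%). For the 79 lower and 26 higher genes the adjusted p lay between 0.714 and 0.794. Standard errors below come from the fit with the block and take in how far all 4 groups departed from a common set difference.

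Each set can also be read with genes picked in the other, among those well above background on both fragment arrays of the set used for picking. Of 163 genes at least 2-fold lower in set 1, 77.9% were also lower in set 2, with a median difference there of -0.76, where 48% of all genes well above background on the set 1 fragment arrays were lower. Of 330 genes at least 2-fold lower in set 2, 79.7% were lower in set 1, with a median of -0.35, against 41.9% of all. For higher genes the shares lay nearer to the background. They were 61.8% of 68 genes picked in set 1, against 52%, and 61.3% of 173 genes picked in set 2, against 58.1%. The shares for higher genes picked in set 1 moved with the processing, to 88.2% with normexp background correction and 74% with median scaling. Under the same settings the share was 44.6% and 48.3% for higher genes picked in set 2, and 93.8% and 87.3% for lower genes picked there. The shares over all genes in those settings are not given, so these values cannot be read against the background above. Lower and higher genes were not tested against each other. Across all genes the set differences correlated at 0.23, and at 0.30 over the 17341 genes well above background on the 4 arrays. These points share their arrays and most of them lie near 0.

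**Figure D1:**
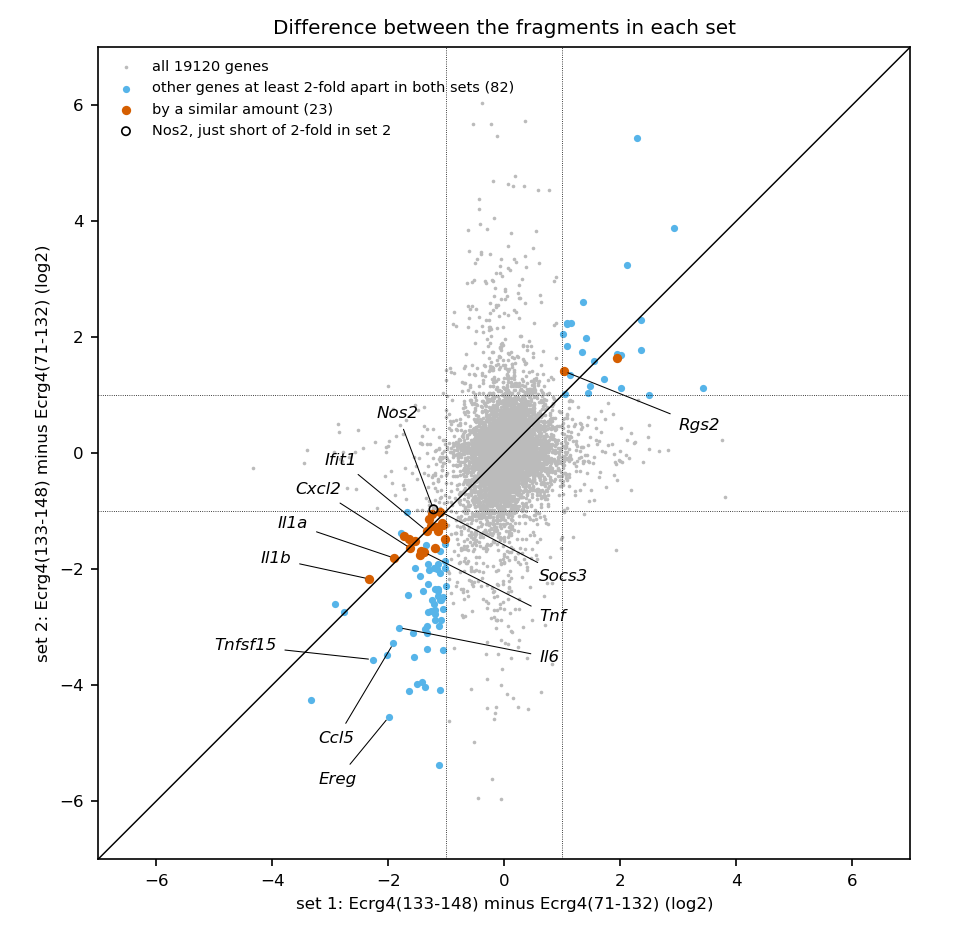
Difference between the fragments (Ecrg4(133-148) minus Ecrg4(71-132), log2) in set 1 on the x axis and in set 2 on the y axis, 1 point per gene, with the diagonal drawn and dotted lines at 2-fold. The 21 lower and 2 higher genes of similar amount (orange) lie along the diagonal, while most other genes past 2-fold lower in both sets (light blue) lie below it, with a larger difference in set 2.

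At the 2-fold edge, Socs3 (-1.10 and -1.01 in sets 1 and 2) and Ifi211 (-1.02 and -1.49) were just inside. Just outside were Zc3h12a (-0.99 and -1.25), which encodes an RNase that degrades cytokine mRNA, Nos2 (-1.22 and -0.97) and Zmynd15 (-0.97 and -1.24). At the edge for similar amounts, Acod1 and Ifi211 were inside with gaps of 0.43 and 0.466 between the sets. Nlrp3, the sensor of an inflammasome, was outside with a gap of 0.54 (-1.03 and -1.57), as was the adenosine receptor gene Adora2a with 0.603.

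The 250 bases before the start of 4 of these genes are shown because they carry the DNA motifs by which the branches described above are usually recognised. Each is from RefSeq on GRCm38.p6 and is written 5′ to 3′ on the strand of the gene, with motif matches in capitals. Ifit1 is at chr19:34640639-34640888 on the plus strand, Rsad2 at chr12:26456453-26456702 on the minus strand, Cxcl10 at chr5:92348890-92349139 on the minus strand and Cxcl2 at chr5:90903649-90903898 on the plus strand.
Ifit1: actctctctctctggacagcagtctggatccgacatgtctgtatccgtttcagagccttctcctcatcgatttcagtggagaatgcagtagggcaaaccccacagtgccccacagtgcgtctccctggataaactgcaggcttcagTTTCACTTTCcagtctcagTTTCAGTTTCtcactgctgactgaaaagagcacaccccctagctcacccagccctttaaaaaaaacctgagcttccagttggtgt
Rsad2: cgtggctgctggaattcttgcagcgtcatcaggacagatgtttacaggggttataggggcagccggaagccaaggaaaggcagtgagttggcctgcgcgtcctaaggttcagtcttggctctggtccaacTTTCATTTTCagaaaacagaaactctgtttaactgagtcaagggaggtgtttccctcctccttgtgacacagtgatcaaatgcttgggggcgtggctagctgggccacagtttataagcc
Cxcl10: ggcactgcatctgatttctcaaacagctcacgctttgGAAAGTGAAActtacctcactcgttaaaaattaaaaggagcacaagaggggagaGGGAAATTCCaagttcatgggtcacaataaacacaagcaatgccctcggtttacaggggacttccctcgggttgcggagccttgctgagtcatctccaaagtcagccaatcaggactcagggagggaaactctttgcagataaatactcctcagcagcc
Cxcl2: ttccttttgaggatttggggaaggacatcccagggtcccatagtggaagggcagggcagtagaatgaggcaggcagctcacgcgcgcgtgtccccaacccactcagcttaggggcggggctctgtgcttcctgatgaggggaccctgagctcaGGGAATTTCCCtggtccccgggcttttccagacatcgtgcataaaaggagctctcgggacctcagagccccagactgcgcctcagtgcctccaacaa

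Each motif was searched on both strands. The first was GAAA, any 2 bases and GAAA again, the core of the interferon-stimulated response element. The other was GGGA, any 2 bases and TTCC, a kappaB motif bound by NF-kB. Ifit1 held the first motif at -104 and -85 from the start, Rsad2 at -120, and Cxcl10 at -213 together with a kappaB match at -159. Cxcl2 held a kappaB match at -97 that overlaps its own reverse-strand match at -96. Among the 15 lower genes of similar amount with an entry in the RefSeq promoter table, 4 held the first motif (Cxcl10, Ifit1, Rsad2 and Ifi211) and 3 the kappaB motif (Cxcl1, Cxcl2 and Cxcl10). Over all 27025 promoters of the table the shares were 3.46% and 1.36%. Most of the 15 genes held neither motif in these 250 bases. A match is a stretch of letters and not a measured binding site, and both motifs were chosen with these genes known.

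Among the cytokines, interleukin 1 showed the largest difference of similar amount. Il1b, the precursor of interleukin 1 beta, stood at 1.68 and 0.93 with PBS (set 1 first), 2.66 and 2.62 with Fc, 5.67 and 8.57 with Ecrg4(71-132) and 3.33 and 6.4 with Ecrg4(133-148). Within each set the Ecrg4(133-148) array lay between Fc and Ecrg4(71-132). The fragment groups overlapped, since the Ecrg4(133-148) array of set 2 was above the Ecrg4(71-132) array of set 1. The difference was -2.33 in set 1 and -2.17 in set 2, with a mean of -2.25 ± 1.13 (SE), or 4.77-fold. Il1a, which encodes interleukin 1 alpha, went from 3.18 and 5.43 with Ecrg4(71-132) to 1.28 and 3.63 with Ecrg4(133-148), beside 0.73 and 1.19 with Fc and 0.01 and 0.44 with PBS. Its differences of -1.9 and -1.81 (mean -1.85 ± 0.62) were again nearly equal while the levels of the sets were not.

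Tnf, the gene of tumour necrosis factor, was at 3.32 and 1.74 with PBS, 4.32 and 3.19 with Fc, 6.07 and 7.33 with Ecrg4(71-132), and 4.69 and 5.62 with Ecrg4(133-148). Here both Ecrg4(133-148) arrays were below both Ecrg4(71-132) arrays, as they were for 7 of the 21 genes and for 1241 of all 19120 (6.49%). Csf3, encoding granulocyte colony-stimulating factor, was dim in all groups, at -4.82 and -5.39 with PBS, -4.36 and -5.69 with Fc, -2.73 and -0.55 with Ecrg4(71-132), and -4.45 and -1.99 with Ecrg4(133-148). Its probe was well above background on all 4 fragment arrays but on only 1 of the 2 arrays of PBS and of Fc, so its distance from the controls is not given.

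The list of 23 inflammatory cytokines and colony-stimulating factors had 19 members measured under a matched symbol. Of these, 17 were lower in both sets and 9 at least 2-fold lower in both. Csf2 and Lif are in both counts, but their probes were kept only through the Ecrg4(71-132) arrays, which favours this direction. The median difference of the 19 was -0.84 in set 1 and -1.42 in set 2, beside 0.03 and 0.01 over all genes, of which 23.7% were lower in both sets. None passed limma's adjusted threshold with the block, and 6 of 19 were lower at an unadjusted p under 0.05, beside 2.53% of all genes. Differences were small for Ebi3 (-0.18 and -0.20), Il27 (-0.29 and -0.12) and Il18 (-0.28 and -0.21), a member of the interleukin 1 family. Il33 (-0.72 and 0.33) and Il15 (-0.57 and 0.22) had opposite signs in the sets. Tnfsf15, a TNF-family ligand, differed more than Il1b but unequally, by -2.27 in set 1 and -3.56 in set 2. Csf2, encoding granulocyte-macrophage colony-stimulating factor, was at -1.86 and 0.77 with Ecrg4(71-132) and at -4.63 and -1.98 with Ecrg4(133-148), and its probe was well above background on 1 of the 2 Ecrg4(133-148) arrays. Osm, encoding oncostatin M, differed by -0.40 and -1.12, and Il1rn, the interleukin 1 receptor antagonist, by -0.26 and -1.07.

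**Figure D2:**
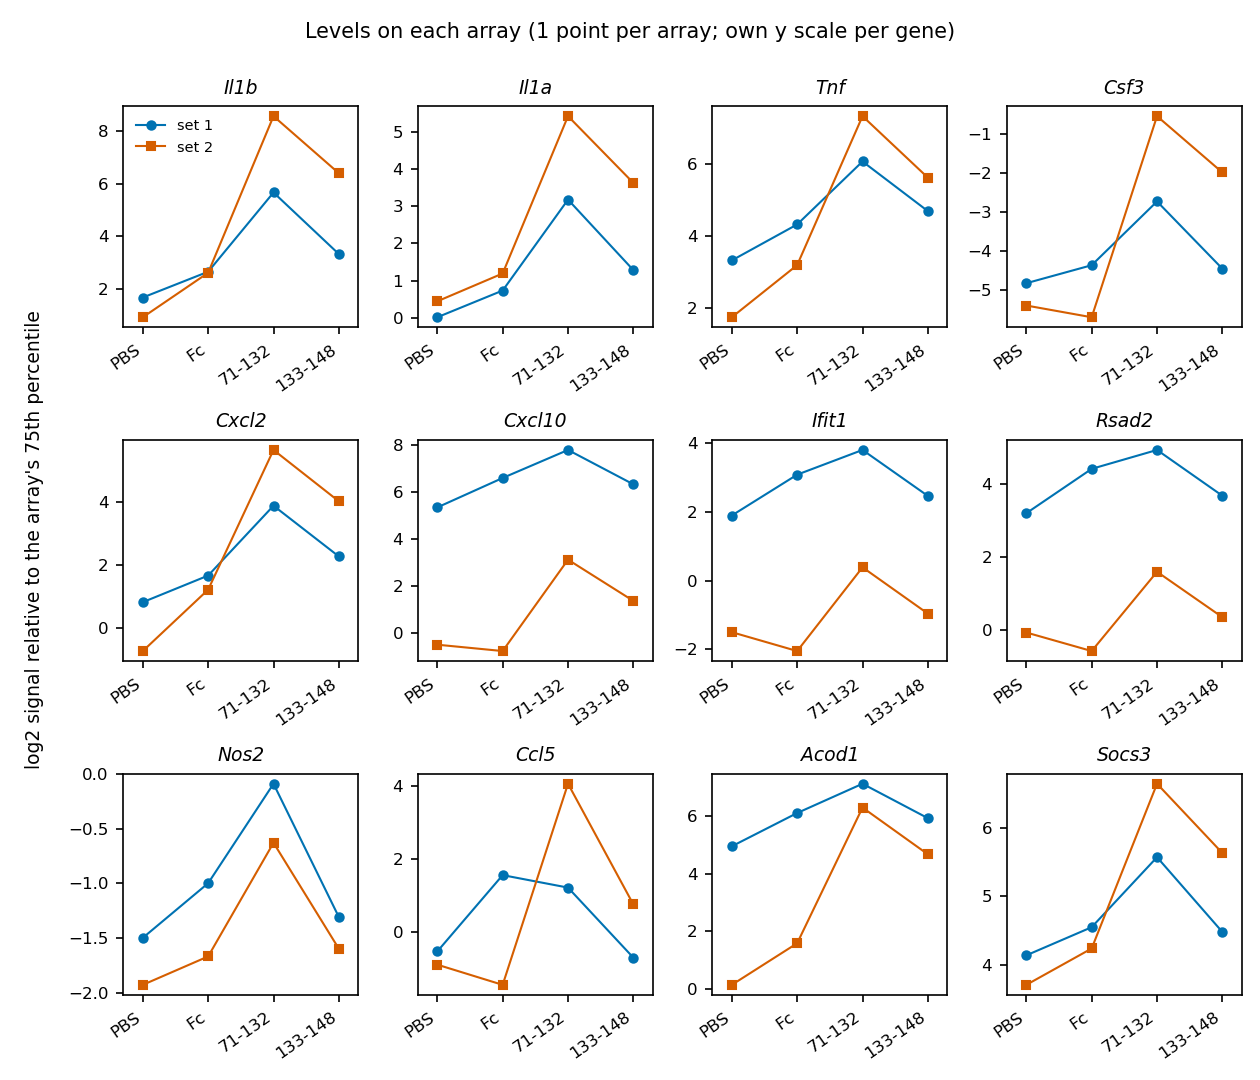
Log2 signal relative to the array's 75th percentile (y axis, own scale per gene) for 12 genes by treatment (x axis), with 1 point per array and lines joining the arrays of 1 set. Ecrg4(133-148) lies below Ecrg4(71-132) in both sets for each gene. For Cxcl10, Ifit1, Rsad2, Acod1, Nos2, Ccl5, Socs3 and Csf3 it lies below Fc in set 1 and above Fc in set 2. Csf3 was well above background on 1 of the 2 Fc arrays. For Il1b, Il1a, Tnf and Cxcl2 it lies above Fc in both sets.

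Chemokines of the CXC and CC families are given in turn, and the families were not tested against each other. Cxcl2, which draws neutrophils, stood at 0.81 and -0.75 with PBS, 1.66 and 1.21 with Fc, 3.89 and 5.67 with Ecrg4(71-132), and 2.27 and 4.03 with Ecrg4(133-148), so that its differences were -1.62 and -1.64. Cxcl1, of the same function, differed by -1.64 and -1.49 although its Fc signal was -1.24 in set 1 and -5.96 in set 2, where it was not well above background. Cxcl10, a T-cell attractant induced by interferon, was at 7.79 and 3.13 with Ecrg4(71-132) and at 6.33 and 1.38 with Ecrg4(133-148). With Fc it was at 6.6 and -0.75, so in set 1 the shorter fragment was below Fc and in set 2 above it. Of 8 CXC chemokines measured, 7 were lower in both sets (23.7% of all genes), with medians of -1.21 and -1.67, and Cxcl14 was at 0.06 and 0.04. Cxcl12, a homing factor, differed by -0.16 and -4.49, and its probe was above background on 1 of the 2 Ecrg4(133-148) arrays. That probe was kept only through the Ecrg4(71-132) arrays, which favours this direction. None of the 8 had an unadjusted p under 0.05.

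Of 11 CC chemokines measured, 5 were lower in both sets (23.7% of all genes) and 6 had opposite signs, with medians of -0.35 and -0.03. Ccl5, which attracts T cells and monocytes, had the largest difference of them, at -0.52 and -0.88 with PBS, 1.56 and -1.43 with Fc, 1.22 and 4.05 with Ecrg4(71-132), and -0.69 and 0.76 with Ecrg4(133-148). Its direction was shared by the sets but not its size (-1.91 and -3.28), and the set 1 arrays placed Fc above both fragments. Ccl3 and Ccl4, which attract monocytes, differed by -0.47 and -0.26 and by -0.50 and -0.93. Ccl2, the main monocyte attractant, was at 8.67 and 7.14 with Ecrg4(71-132) and 8.32 and 7.15 with Ecrg4(133-148), a mean difference of -0.17 with a 95% interval from -0.65 to 0.31. Ccl7 followed it with -0.76 and -0.03.

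Chemokine and cytokine receptors had medians of -0.01 and 0.01, with 6 of 20 lower and 6 of 20 higher in both sets. Over all genes these shares were 23.7% and 33.5%. The lowest was Ccrl2, a chemerin-binding receptor (-1.20 and -0.81), followed by the TNF receptor gene Tnfrsf1b (-0.57 and -0.69). Higher with Ecrg4(133-148) were Ccr2, the receptor for Ccl2 (0.42 and 0.76), the interleukin 6 receptor gene Il6ra (0.22 and 0.75, fitted at -0.08 without the set 2 array of Ecrg4(71-132)) and Il6st, its signalling partner (0.35 and 0.37, mean 0.36 ± 0.08 SE). Of the 20 receptors, 1 was lower and 3 were higher at an unadjusted p under 0.05 in limma with the block, and none passed after adjustment. Over all genes these shares were 2.53% and 3.8%.

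The antiviral genes Ifit1 and Rsad2 gave the closest match between the sets, on top of very different levels. Ifit1, whose product binds foreign RNA, was at 1.90 and -1.50 with PBS, 3.09 and -2.05 with Fc, 3.81 and 0.39 with Ecrg4(71-132), and 2.47 and -0.96 with Ecrg4(133-148). The 2 fragments therefore differed by -1.34 in each set (mean -1.34 ± 0.49), while every set 2 array lay below every set 1 array. Rsad2, encoding viperin, was at 3.20 and -0.08 with PBS, 4.42 and -0.59 with Fc, 4.94 and 1.59 with Ecrg4(71-132), and 3.68 and 0.34 with Ecrg4(133-148), a difference of -1.26 and -1.25. For both genes the fragment groups overlapped because of the set levels. Oasl1 (-1.16 and -1.27), encoding an oligoadenylate synthetase-like protein, and Cmpk2 (-1.24 and -1.05), the neighbour of Rsad2 in the genome, also differed by similar amounts. In set 2, Oasl1 with Ecrg4(133-148) was at -1.26, beside -1.18 with PBS, while the other 3 genes were above PBS there.

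Over the whole list of interferon-stimulated genes the sets were less alike than these 4 genes were. All 31 measured members were lower in set 1 (median -0.84), and 26 were lower in set 2 (median -0.30). Over all genes 42.2% were lower in set 1 and 48% in set 2. The set 1 difference was the lower one for 29 of 31, beside 9005 of all 19120 genes. For the cytokines the set 2 difference was the lower one in 11 of 19, near the background of 10115 of 19120. That contrast between the lists was not tested. Isg15, a ubiquitin-like antiviral protein, differed by -1.11 and -0.95, Gbp2 by -1.23 and -0.92 and Gbp3 by -1.02 and -0.72. Oas3 (-1.13 and 0.28), Ddx58 (-0.78 and 0.22), Zbp1 (-0.70 and 0.06) and Dhx58 (-0.65 and 0.07), which sense foreign nucleic acid or act on it, had opposite signs in the sets. Gbp5, a guanylate-binding protein, was larger in set 2 (-1.45 and -2.12). Limma with the block called none of the 31, and 7 were lower at an unadjusted p under 0.05, beside 2.53% of all genes.

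**Figure D3:**
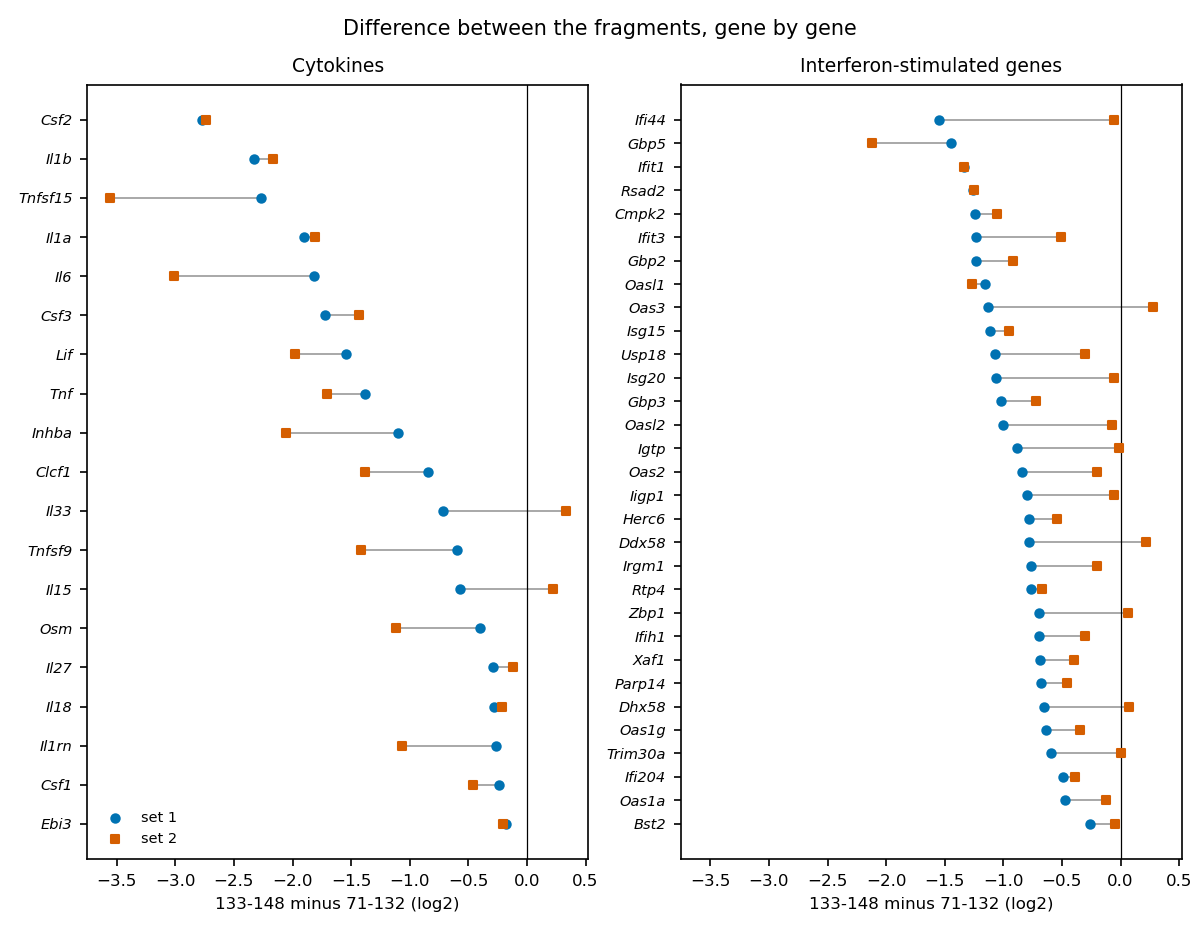
Difference between the fragments (x axis, log2) for each measured cytokine (left) and interferon-stimulated gene (right), with set 1 as circles, set 2 as squares and a line joining them. All circles lie below 0, and the squares of the interferon-stimulated genes lie nearer to 0 than the circles for 29 of 31 genes.

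Upstream of these genes, Ifnb1, encoding interferon beta, was at -3.64 and -6.09 with PBS, -2.73 and -5.65 with Fc, -0.29 and -3.17 with Ecrg4(71-132), and -1.64 and -4.75 with Ecrg4(133-148). It differed by -1.35 and -1.58 (mean -1.47 ± 0.17), but its probe was well above background on only 1 of the 2 Ecrg4(133-148) arrays. That probe was kept only through the Ecrg4(71-132) arrays, which favours this direction. The feedback inhibitors Socs3 (-1.10 and -1.01) and Socs1 (-0.91 and -1), which block JAK kinases, were lower by similar amounts. Irf7, the regulator that amplifies interferon production, was lower in set 1 (-1.08) and by -0.23 in set 2. The kinases Tbk1 (-0.06 and -0.03) and Jak1 (0.00 and -0.03) and the factors Irf3 (-0.01 and 0.14) and Irf5 (0.05 and 0.12) differed little. Irf8, a factor of macrophage identity, was higher by 0.35 and 0.48. Of 19 members measured, 12 were lower and 2 higher in both sets, beside 23.7% and 33.5% of all genes.

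Nos2, the inducible nitric oxide synthase of macrophages, was at -1.50 and -1.93 with PBS, -1 and -1.67 with Fc, -0.09 and -0.63 with Ecrg4(71-132), and -1.31 and -1.60 with Ecrg4(133-148). The Ecrg4(133-148) arrays lay among the PBS and Fc arrays, and both were below both Ecrg4(71-132) arrays. The difference of -1.22 and -0.97 had a mean of -1.09 ± 0.11, with a 95% interval from -1.38 to -0.81. Limma's unadjusted p with the block was 0.000265, adjusted 0.714, and 0.0179 without the block, adjusted 1. Among the genes that supply its substrate arginine, the transporter gene Slc7a2 (-0.47 and -0.91) and Ass1, which remakes arginine (-0.27 and -0.19), were lower in both sets, and the transporter gene Slc7a1 (0.11 and -0.32) and Asl (0.01 and -0.10) had opposite signs. Of those that make its cofactor tetrahydrobiopterin, Gch1 was lower (-0.31 and -0.53) and Pts (0.08 and 0.07) and Spr (0.03 and 0.25) were higher. Arg2, a mitochondrial arginase, differed by -0.87 and -1.69, while Arg1, the cytosolic one, was at 0.07 and -0.08 (95% interval -0.24 to 0.22). Acod1, which makes itaconate, was at 4.96 and 0.13 with PBS, 6.12 and 1.58 with Fc, 7.14 and 6.31 with Ecrg4(71-132), and 5.94 and 4.68 with Ecrg4(133-148). Of 11 members of this list, 6 were lower in both sets, beside 23.7% of all genes.

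NF-kB's inhibitors and targets were lower almost throughout, and more so in set 2. Of 22 measured, 20 were lower in both sets (23.7% of all genes), with medians of -0.39 and -0.84. The set 2 difference was the lower one for 21, beside 10115 of all 19120 genes. Over all genes the differences were also wider in set 2, with a standard deviation of 0.52 against 0.32 in set 1. The part of that wider spread in the larger set 2 values of this list was not tested. Traf1, a signalling adaptor, differed by -1.27 and -2.73, Nfkbid, a nuclear inhibitor, by -0.71 and -2.82, and Nfkbiz, which drives secondary response genes, by -1.51 and -0.98. Nfkbia, the classical inhibitor, differed by only -0.27 and -0.39, Tnfaip3 by -0.53 and -1.46. Among the 10 subunits and kinases, 7 were lower in both sets (medians -0.17 and -0.31), beside the same 23.7%. The precursors Nfkb1 (-0.46 and -1.09) and Nfkb2 (-0.39 and -1.22) led, whereas Rela was at -0.03 and -0.29 and the kinase genes Chuk and Ikbkb were within 0.12 of 0 in each set. Limma with the block called none of these genes, and 1 in each list had an unadjusted p under 0.05, beside 6.33% of all genes.

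Other effector lists differed through single members. Among prostaglandin and leukotriene enzymes only Ptgs2, the inducible cyclooxygenase, passed 2-fold (-1.40 and -2.37), with levels of 3.05 and 3.95 with Ecrg4(71-132) and 1.65 and 1.58 with Ecrg4(133-148). Without the set 2 array of Ecrg4(71-132) the fitted difference of Ptgs2 was 0.08, with that group's set shift taken from the other groups. The list's medians were 0.05 and 0.09, and Ptges, the prostaglandin E synthase, was at -0.18 and 0.09. In antigen presentation, 12 of 16 members were lower in both sets (23.7% of all genes), led by the costimulatory genes Cd40 (-1.05 and -2.49) and Icosl (-0.52 and -1.48). Cd80, also costimulatory, was higher (0.17 and 0.95), and the class I genes H2-K1 (-0.14 and -0.14) and B2m (-0.09 and 0.01) differed little. Among proteases and their inhibitors, Timp1, a metalloproteinase inhibitor, differed alike in the sets (-0.77 and -0.88, mean -0.82 ± 0.17), as did the membrane metalloproteinase gene Mmp14 (-0.69 and -0.79) and Serpinb2 (-0.68 and -0.94). Plau, the urokinase gene, was higher (0.59 and 0.65). Immediate-early genes and phosphatases had medians of -0.09 and -0.37, with Dusp2 at -0.50 and -0.85 and Myc higher by 0.47 and 0.66.

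**Figure D4:**
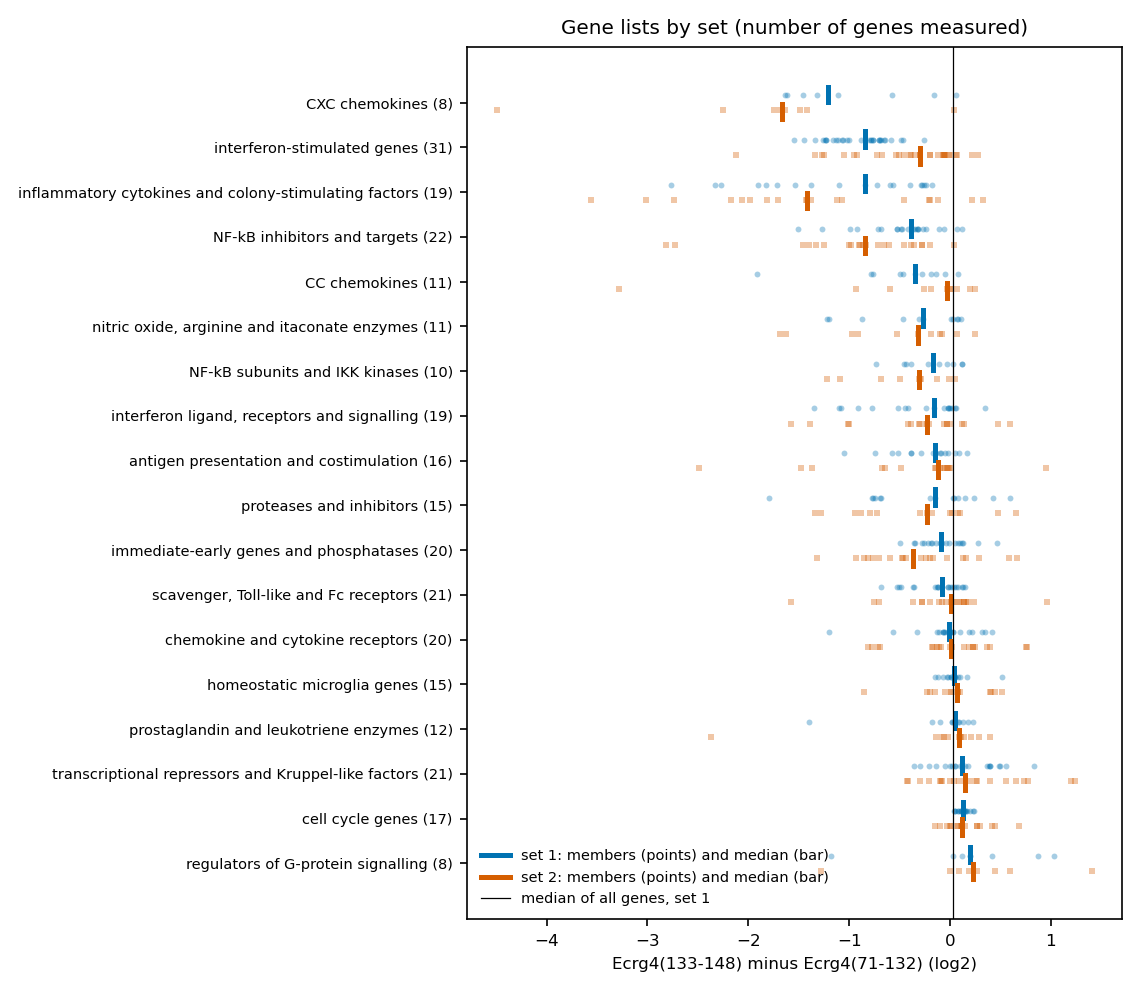
Difference between the fragments (x axis, log2) for the members of 18 gene lists (y axis, with the number of genes measured), as blue circles for set 1 and orange squares for set 2, with the list's median in each set as a bar and the median of all genes as a vertical line. CXC chemokines have the lowest median in both sets, -1.21 and -1.67.

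Ecrg4 fragments have been described as ligands of scavenger receptors, so the genes of 4 such receptors were read. Olr1, encoding LOX-1, was at 1.80 and 4.15 with PBS, 2.13 and 4.65 with Fc, 3.22 and 6.43 with Ecrg4(71-132), and 2.69 and 5.67 with Ecrg4(133-148), a difference of -0.53 and -0.75. Cd36 differed by 0.06 and -0.04 (95% interval -0.24 to 0.26) and Stab1 by 0.02 and 0.04 (-0.15 to 0.21). The probe of Scarf1 was well above background on 1 of 8 arrays. Of 21 scavenger, Toll-like and Fc receptors measured, 7 were lower and 5 higher in both sets, beside 23.7% and 33.5% of all genes. Cd14, the co-receptor for lipopolysaccharide, differed by -0.49 and -1.58 and Tlr2 by -0.37 and -0.70 (fitted at 0.02 without the set 2 array of Ecrg4(71-132)), while Tlr4 was at 0.15 and 0.09. The adaptor gene Myd88 differed by -0.36 and -0.20.

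The other lower genes of similar amount were not matched by symbol to any of these lists. Cd69, an early activation marker, was at -0.43 and -4.11 with PBS, 0.74 and -3.37 with Fc, 2.46 and 1.1 with Ecrg4(71-132), and 0.93 and -0.42 with Ecrg4(133-148), a difference of -1.54 and -1.52. Lcn2, encoding lipocalin 2, which withholds iron from bacteria, differed by -1.43 and -1.69 (1.45 and 1.42 against 0.02 and -0.28). In both genes the groups did not overlap. Ifi211, an interferon-inducible gene of the p200 family, went from 4.29 and 4.92 to 3.26 and 3.43. The 4 remaining lower members were NM_013606 (-1.14 and -1.35), NM_010846 (-1.29 and -1.14), NM_008204 (-1.05 and -1.24) and probe A_55_P1981455 (-1.08 and -1.20). The RefSeq symbols used held no match for them, so they may belong to listed genes that were not counted as measured.

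Where the 21 genes stood against the controls depended on the set. Both fragments are read here against the same Fc array of their set. The genes were picked for a lower signal with Ecrg4(133-148) than with Ecrg4(71-132) on these arrays. That choice favours Ecrg4(71-132) above Fc and Ecrg4(133-148) near or below it. The shares over all genes are not given, so the counts are a description only. In set 1, Ecrg4(71-132) was above Fc for all 21 with a median of 0.90, and Ecrg4(133-148) was below Fc for 16 and above it for 5, with a median of -0.27. The 5 were Il1b, Il1a, Tnf, Cxcl2 and Cd69, at 0.67, 0.55, 0.37, 0.61 and 0.19 above Fc. In set 2 both fragments were above Fc for all 21, with medians of 2.97 and 1.48 that include Csf3 and Cxcl1, which were well above background on 1 of the 2 Fc arrays. The Fc arrays themselves were above PBS for 18 of 21 in set 1 and 13 of 21 in set 2. Against PBS, Ecrg4(133-148) was higher for 17 of 21 in set 1 and 20 of 21 in set 2.

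The other 39 genes that were at least 2-fold lower in both sets and well above background on the 4 arrays all differed more in set 2, their medians being -1.21 for set 1 and -2.60 for set 2. Together with the 21 they make up 60 of 17341 genes (0.346%), beside 2 of 17341 at least 2-fold higher in both sets (0.0115%). Il6, the interleukin 6 gene, was at 5.12 and 5.66 with Ecrg4(71-132) and at 3.3 and 2.65 with Ecrg4(133-148). Ereg (-1.99 and -4.55) and Areg (-1.50 and -3.99) encode the growth factors epiregulin and amphiregulin, both ligands of the EGF receptor, and Inhba (-1.10 and -2.06) encodes a subunit of activin A. Cxcl3 (-1.32 and -2.25) is a further neutrophil chemokine, and Il1f6 (-1.33 and -3.38) encodes an interleukin 1 family member. Col5a3, a collagen chain, differed by -1.65 and -4.10, Lox, which cross-links collagen, by -1.19 and -2.88, and Penk, the enkephalin precursor, by -1.14 and -2.47. Camp, an antimicrobial peptide gene that is also 1 of the neutrophil markers, differed by -1.14 and -2.34. The neutrophil markers summed to 16 with Ecrg4(71-132) and 14.8 with Ecrg4(133-148) in set 1, and to 24.2 and 19.2 in set 2, and their part in these results was not tested. Ereg, Areg, Inhba, Il1f6, Col5a3, Lox, Penk and Camp were chosen after their values were seen.

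Some probes of this group had nearly equal differences: Wdr92, Mbd1, BB713741 and A_55_P1978866 differed by -1.32 and -2.74, -1.24 and -2.54, -1.14 and -2.38, and -1.21 and -2.60. Mbd1 is uncertain, because its other kept probes differed by only -0.04 and -0.16 and by -0.09 and -0.18. For the other 8 genes past 2-fold with a further kept probe, all 9 further probes had the same direction in both sets as the probe used, and 4 of them also passed 2-fold in both.

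Few genes were higher with Ecrg4(133-148) and bright enough to be read. Of the 26 at least 2-fold higher in both sets, 24 were not well above background on all 4 fragment arrays. Rgs2, a GTPase activator that ends G-protein signalling, was at 5.01 and 5.29 with PBS, 4.90 and 4.85 with Fc, 3.93 and 2.71 with Ecrg4(71-132), and 4.96 and 4.12 with Ecrg4(133-148). Its difference was 1.03 and 1.41 (mean 1.22 ± 0.40), the groups did not overlap (as for 1542 of 19120 genes whose Ecrg4(133-148) arrays were both above, 8.06%), and the Ecrg4(133-148) arrays lay nearer to the controls than the Ecrg4(71-132) arrays did. AK084291 went from -2.77 and -3.75 to -0.84 and -2.12, beside -1.85 and -1.70 with Fc.

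The family of Rgs2 was mostly higher as well. Of 8 regulators of G-protein signalling measured, 7 were higher in both sets (medians 0.20 and 0.23, beside 33.5% of all genes higher in both). Rgs1 was at 2.06 and 2.47 with Ecrg4(71-132) and at 2.93 and 2.92 with Ecrg4(133-148). The exception was Rgs16, at -1.18 and -1.28, with levels of 1.5 and -0.57 against 0.32 and -1.85. Of the 8, 3 were higher at an unadjusted p under 0.05 in limma with the block (3.8% of all genes), and none passed after adjustment.

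Among transcriptional repressors and Kruppel-like factors, 13 of 21 were higher and 5 lower in both sets, with medians of 0.12 and 0.15. Over all genes 33.5% were higher and 23.7% lower in both. Cbfa2t3, a corepressor, was at -0.79 and -0.77 with PBS, -0.87 and -0.94 with Fc, -2.07 and -2.18 with Ecrg4(71-132), and -1.24 and -1.63 with Ecrg4(133-148), so that its duplicates lay close together. Klf8 was at -2.74 and -2.98 with Ecrg4(71-132) and at -2.25 and -2.21 with Ecrg4(133-148), level with PBS (-2.27 and -2.25). Klf2 and Klf4, which restrain macrophage activation, were higher by 0.40 and 1.20 and by 0.49 and 1.24. In set 1 the Klf2 level with Ecrg4(71-132), 3.78, lay between PBS (3.71) and Fc (3.93).

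**Figure D5:**
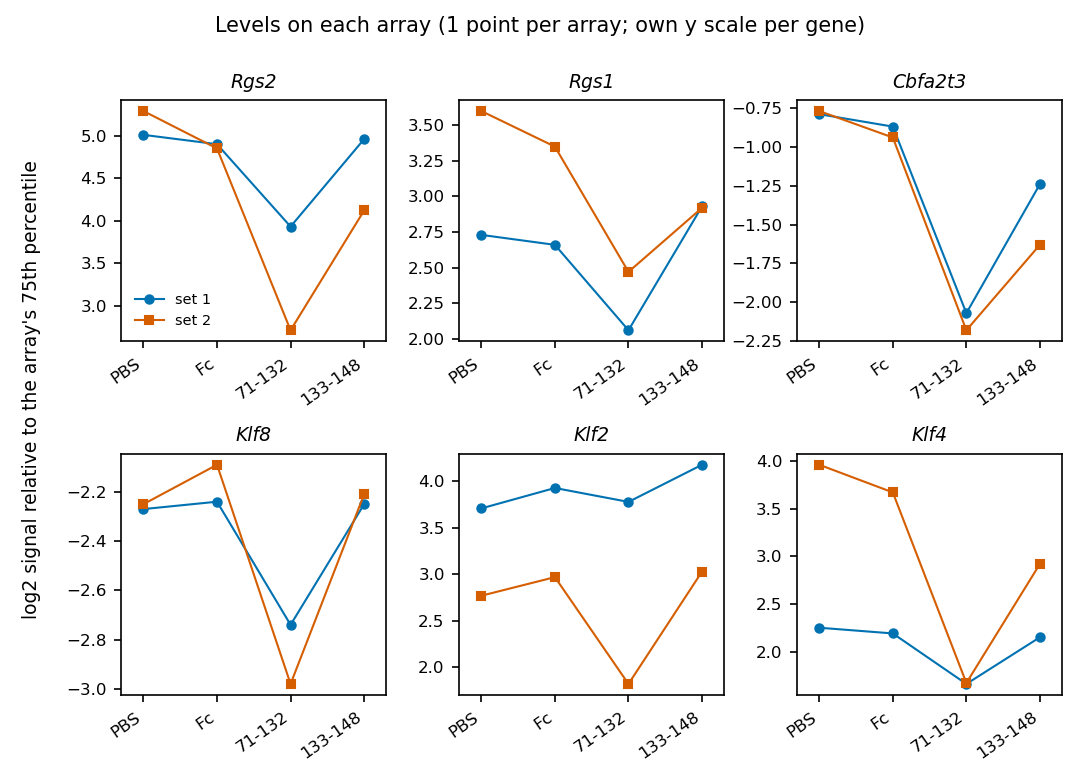
Log2 signal relative to the array's 75th percentile (y axis, own scale per gene) for 6 genes that were higher with Ecrg4(133-148) in both sets, by treatment (x axis), with 1 point per array and lines joining the arrays of 1 set. The Ecrg4(71-132) arrays are lowest in their set except for Klf2 in set 1, and the 2 sets of Cbfa2t3 and Klf8 lie close together.

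Homeostatic microglia genes, which mark the resting state, and cell cycle genes differed little. Of 15 homeostatic genes, 6 were higher and 1 lower in both sets (medians 0.04 and 0.07), beside 33.5% and 23.7% of all genes. Gpr34, a lysophospholipid receptor, was higher by 0.52 and 0.40, with levels of 0.13 and -0.53 against 0.65 and -0.12, beside 1.16 and 0.97 with Fc. Of 17 cell cycle genes, 13 were higher and 0 lower in both sets, by small amounts (medians 0.13 and 0.12), beside the same 33.5% and 23.7%. Bub1b, a spindle checkpoint kinase, was the largest of them with 0.24 and 0.68.

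Some genes have only a bound on 1 side. Sprr2e, encoding a cornified envelope protein, was at least 1.94-fold lower with Ecrg4(133-148), measured at -4.06 and -3.57 against -6.97 and -6.18. Edn1, the endothelin 1 precursor, was at least 2.76-fold lower, measured at -4.19 and -2.08 against -5.85 and -4.52. Neither was well above background on an array of any other group, so both were kept only through the Ecrg4(71-132) arrays. These 2 and Nos2 had the smallest unadjusted p of all lower genes. Of the 3 higher genes with the smallest p, the probe named chr14:78936896-78937160_R (mm9, the build of the array design) was at least 2.62-fold higher, chr1:135956616-135957485_R at least 1.54-fold higher and XR_380064 at least 1.38-fold higher. None of the 3 had a matched symbol or was well above background on an Ecrg4(71-132) array. The first and the last were kept only through the Ecrg4(133-148) arrays. For such a bound, each array of the dim group was given its dimmest signal clear of background, or the probe's own signal where that was higher, and the average of these was compared with the average of the bright group.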

How the data were processed

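RNA of 8 samples (4 groups, 2 arrays each, 1 slide) was hybridised to 1-colour Agilent mouse arrays, with set 1 and set 2 in different array columns of the slide. Per the file headers, the deposited scanner tables hold processed intensities (background-subtracted by the scanner software) with flags for spots well above background, and per the submitters' processing notes the software was Agilent Feature Extraction 11.0.1.1. The authors also deposited a table of log2 values, which correlates at 1 with the scanner log2 intensity of each array, and the sources used here do not say how its centring constant was set.

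Each array's log2 intensity was taken relative to its 75th percentile over all spots that are not controls. Spots of the same probe were then averaged, which gave 55681 probes, of which 104 were left out as outlying on an array. A probe was kept when well above background on every array of at least 1 group (25250 probes), and the brightest kept probe stood for a gene (19120 genes, 4456 with several kept probes). RefSeq accessions gave symbols to 28026 probes, and 27655 keep the name in the file. A listed gene whose probes kept that name was not counted as measured. Differences were tested with limma 3.58.1 in R 4.3.3, with 1 mean per group, the set as a block (3 residual degrees of freedom) and Benjamini-Hochberg adjustment. The number of arrays limits the precision.

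The members, gene lists and motifs were chosen with earlier results of these data known. Named genes are Nos2, Ccl5, Ifit1 and Rsad2, up to 15 lower and 10 higher genes of similar amount, up to 4 largest differences per list among genes well above background on all 4 fragment arrays, the 3 smallest p in each direction and 4 scavenger receptors. Other list members were named after their values were seen. Alternatives were normexp background correction (offset 50, computed from the median signals, as the files used have no mean), quantile normalization, median scaling, other filters, probe rules and thresholds, the deposited log2 table, no block, and leaving out arrays. The sets pair the samples in the rule, and the set differences of any pair of groups correlated at 0.78 to 0.86.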

Additional observations from a re-analysis of the deposited data

How the results depend on the processing

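With 2 arrays per group and 3 residual degrees of freedom, limma called 0 genes in every setting run, leave-one-out included (0 to 0, with 758 to 3854 genes at an unadjusted p under 0.05). Without the replicate block it also called 0. The counts of 79 lower, 26 higher, 21 similar lower and 2 similar higher genes moved as follows. Normexp gave 44 lower and 2 higher, no filter 128 and 64, and requiring signal on all 8 arrays 48 and 2, so that the share of lower genes went from 75.2% to 95.7%, 66.7% and 96%. At 1.5-fold there were 215 lower, 103 higher, 74 similar lower and 29 similar higher, and at 3-fold 13, 8, 3 and 1. Set differences within 0.25 left 0 similar higher genes and those within 1 gave 32 similar lower genes, while median scaling and the mean of the kept probes left 1 similar higher gene each.

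Of genes picked in 1 set, the share with the same direction in the other was 88.2% (higher, set 1 to set 2), 93.8% (lower, set 2 to set 1) and 44.6% (higher, set 2 to set 1) with normexp and 74%, 87.3% and 48.3% with median scaling, which moved the median of all genes to -0.074 and 0.072. At 1.5-fold it was 68% (lower, set 1 to set 2), 74% (lower, set 2 to set 1) and 69% (higher, set 2 to set 1). The median of CXC chemokines was -1.09 with normexp, -1.23 with no filter and -1.67 to -1.21 without replicate 1 or 2, and that of CC chemokines -0.35 to -0.03. The median of receptors reversed to 0.02 with quantile normalization and ranged from -0.01 to 0.01 without a replicate. Cd36, near 0, reversed to -0.04 with normexp and -0.01 with median scaling.

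Leaving out 1 array turned the direction of these genes, in each case without the set 2 array of Ecrg4(71-132), and the ranges over the arrays left out were as follows: Cd36 -0.09 to 0.11, Il6ra -0.08 to 1.04, Relb -0.88 to 0.16, Vcam1 -2.42 to 0.10, Ptgs2 -3.85 to 0.08, Tlr2 -1.10 to 0.02, H2-Eb1 -1.50 to 0.21, Rgs14 -0.10 to 0.72, Mertk -0.02 to 0.59, P2ry12 -0.05 to 0.50, P2ry13 -0.08 to 0.51 and Stab1 0.00 to 0.06. Cd36 also reversed without the set 1 array of Ecrg4(133-148). Without the set 2 array of Ecrg4(71-132), the fit takes that group's set shift from the other groups. Its value is therefore not the difference within set 1, which was still -1.40 for Ptgs2, -0.92 for Vcam1 and -0.37 for Tlr2. H2-Eb1 (0.09) and P2ry13 (-0.02) had the turned direction within set 1 as well. Why the set shifts were unlike was not tested. Of all checks on single named genes, 1487 kept their direction and 15 reversed.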

Other observations

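Of the 8 genes past 2-fold in opposite directions, 3 were well above background on all 4 fragment arrays, all without a matched symbol. TC1632043 differed by 1.38 in set 1 and -1.05 in set 2, with levels of -3.43 and -1.19 with Ecrg4(71-132) and -2.04 and -2.24 with Ecrg4(133-148). The other 2 were probes for unnamed transcripts of chromosome 5, at -1.01 and 1.26 and at -1.06 and 1.03.

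Probes of a stretch of chromosome 16 (mm9) stood among the lower genes with the larger difference in set 2. The probe named chr16:84702353-84710928_F differed by -1.09 and -2.88, the one on the other strand, chr16:84702353-84710928_R, by -1.34 and -3.11, and chr16:84708695-84708806_F by -1.55 and -3.51. NM_008352 differed by -3.33 and -4.25, the lowest value in set 1 among the 60 lower genes well above background on the 4 fragment arrays. The RefSeq symbols used held no match for it, so it may belong to a listed gene that was not counted as measured.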
